A study of Mus musculus with 12 samples.

Results

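Cells can restrain immune attack by placing ligands of inhibitory receptors on their surface and by enzymes that consume or produce small molecules around them. The mouse genes of this kind described here are 6 surface ligands or receptors and one galectin (Cd274, Pdcd1lg2, Pvr, Cd276, Cd47, Tnfrsf14 and Lgals9) and the enzymes Ido1 and Nt5e. They were picked by gene name and are 9 of the 16399 genes over 5 tables of differential expression. RNA had been sequenced after 6 days of culture of MC38 tumours, a mouse colon carcinoma line of C57BL/6 origin, with the strain labelled C57BL/6 albino. The tumours were dissociated, and pieces of 40 to 100 µm were held in collagen in 3-D culture chips. The 4 groups of 3 samples each received interferon-gamma at 100 ng/mL (IFNg), a PD-1 antibody with a CD8 antibody at 10 µg/mL each (aPD-1+CD8), the PD-1 antibody alone at 10 µg/mL (aPD-1) or a control antibody at 10 µg/mL (IgG). No antibody is named for the IFNg wells, so interferon and the absence of antibody cannot be told apart in the IFNg comparisons. Whether a group's 3 samples are separate animals or cultures is not stated, so the p-values rest on a spread that may be technical.

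CD274 (PD-L1) and PDCD1LG2 (PD-L2) are the ligands of PD-1, the inhibitory receptor of T cells that aPD-1 blocks. PVR binds the inhibitory receptor TIGIT, CD47 signals through SIRP-alpha to phagocytes not to engulf a cell, and TNFRSF14 (HVEM) engages BTLA. CD276 (B7-H3) belongs to the B7 family, and its receptor is not settled. Galectin-9, the product of Lgals9, binds sugars on T cell surface proteins. IDO1 breaks down tryptophan to kynurenine, and NT5E (CD73) makes adenosine from AMP outside the cell. Interferon-gamma acts through JAK kinases and transcription factors that include IRF1, and Cd274 and Ido1 are textbook targets of it.

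The promoters of the 2 PD-1 ligands and of Lgals9 are shown because the ligand genes are neighbours on chromosome 19 and differed in whether a transcript was measured, and because Lgals9 and Cd274 each passed the test in an interferon comparison. Each is the 250 bases before the start of the gene in RefSeq on build GRCm38.p6, read 5′ to 3′ on the strand of the gene. Cd274 is at chr19:29367188-29367437 on the plus strand, Pdcd1lg2 at chr19:29410669-29410918 on the plus strand and Lgals9 at chr11:78984925-78985174 on the minus strand. Capitals mark a match to the core of the interferon-stimulated response element, here on the opposite strand.
Cd274: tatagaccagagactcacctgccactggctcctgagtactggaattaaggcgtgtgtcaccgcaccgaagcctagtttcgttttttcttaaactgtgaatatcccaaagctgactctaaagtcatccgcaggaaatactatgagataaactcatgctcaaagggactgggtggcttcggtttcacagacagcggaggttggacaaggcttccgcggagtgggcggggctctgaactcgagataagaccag
Pdcd1lg2: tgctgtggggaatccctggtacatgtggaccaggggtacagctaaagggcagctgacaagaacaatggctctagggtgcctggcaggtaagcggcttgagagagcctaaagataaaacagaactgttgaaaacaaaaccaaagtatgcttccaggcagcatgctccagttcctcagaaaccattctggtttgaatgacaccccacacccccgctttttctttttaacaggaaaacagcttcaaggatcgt
Lgals9: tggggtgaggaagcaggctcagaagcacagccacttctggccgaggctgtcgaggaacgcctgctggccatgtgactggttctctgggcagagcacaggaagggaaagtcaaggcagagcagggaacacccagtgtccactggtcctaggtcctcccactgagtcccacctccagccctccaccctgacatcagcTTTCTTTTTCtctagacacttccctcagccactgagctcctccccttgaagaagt
The motif given here, searched on both strands, was this core, GAAA and GAAA with 2 bases of any kind between them. Of 32851 mouse promoters of this length 2.98% held it. Among the 7 members with an entry, Lgals9 held it at position -55 from the start and Tnfrsf14 at position -64, and the other 5 did not. Ido1 and Pvr had no promoter entry and were not searched. A match is a description of the letters and not a measured site.

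Each deposited table gives, per gene, a mean normalized count over the 6 libraries of a pair of groups, and the log2 fold change with its standard error (SE) and p. Values of single libraries were not analysed here, so whether the libraries of 2 groups overlap is not given. A level for each group was estimated from the mean counts of the 5 tables, after bringing these to 1 scale. IgG and aPD-1 levels could be reached along 2 routes, and the error given with them is the distance of each route from their mean, which does not cover the spread between libraries. The levels are counts not divided by gene length, so they are compared between groups and not between genes. The mean counts summed to between 10292941 and 11590748 over the tables.

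Cd274 was high in the IFNg cultures and low in the others. Its estimated level was 91.1 normalized counts in IFNg cultures, 11.2 in aPD-1+CD8 cultures, 8.90 ± 0.09 in aPD-1 cultures and 12.9 ± 0.09 in IgG cultures. The 3 antibody groups lay close together, and no test between them passed. In the authors' deposited table for IFNg v IgG, Cd274 rose by 1.99 ± 0.25 in log2 (SE, 3 libraries a group), with an adjusted p of 4.5e-13 from DESeq2. In that of IFNg v aPD-1, the authors' deposited table gave a rise of 2.79 ± 0.36 (adjusted p = 9.8e-13). Both comparisons use the same IFNg libraries. In bulk RNA, more cells that express a gene and more transcript per cell cannot be told apart.

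The deposited fold changes look shrunken toward 0, and more so in some tables than in others. The estimated levels of Cd274 gave a ratio of 7.08 for IFNg over IgG, where the fold in the authors' deposited table was 3.98. For IFNg over aPD-1 the ratio of levels was 10.2, where the authors' deposited table gave 6.91. Such ratios carry no test, and with the low levels in the antibody groups they move with small changes of scale: taken from genes of higher counts, the scale gave Cd274 9.34 in aPD-1 cultures and 12.4 in IgG cultures. By p-value Cd274 ranked 67 of 11478 genes tested in IFNg v IgG and 190 of 12260 in IFNg v aPD-1.

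Between the antibody groups Cd274 stayed within its error. The authors' deposited table for aPD-1+CD8 v aPD-1 had it at 0.19 ± 0.42 in log2 (adjusted p = 0.85), with a 95% interval of -0.64 to 1.01. In aPD-1 v IgG the authors' deposited table had -0.33 ± 0.40 (adjusted p = 0.67), with an interval of -1.12 to 0.46. In aPD-1+CD8 v IgG the authors' deposited table had -0.02 ± 0.07, with an interval of -0.16 to 0.12. That comparison had the smallest standard errors at low counts and looks the most shrunken, so its narrow interval is no sign of a closer measurement. The other intervals are wide, and the values do not show that Cd274 was the same in the 3 groups.

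The other PD-1 ligand, Pdcd1lg2, was close to the limit of detection. It is listed in 2 tables, with a mean count of 0.186 in aPD-1+CD8 v IgG and 0.179 in aPD-1+CD8 v aPD-1, in the authors' deposited tables. It had no row in either IFNg table. Every gene listed there had some reads, with smallest mean counts of 0.123 in IFNg v IgG and 0.120 in IFNg v aPD-1. A gene without reads in a pair would thus have no row, so Pdcd1lg2 was most likely unread in the IFNg cultures, where Cd274 had a level of 91.1. Plgrkt, a plasminogen receptor gene and the other neighbour of Cd274, was at 0.46 ± 0.28 in the authors' deposited table for IFNg v IgG (adjusted p = 0.58) and at 0.78 ± 0.40 in that of IFNg v aPD-1 (adjusted p = 0.20), and passed in neither.

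Ido1 was measured at more than a trace in the IFNg cultures alone. Its estimated level there was 29.4 normalized counts. The mean counts set upper bounds of 0.237 in aPD-1+CD8 cultures, 0.238 in aPD-1 cultures and 0.237 in IgG cultures. Ido1 had no row in aPD-1+CD8 v aPD-1, as a gene without reads in that pair would not, so neither of these groups may have held a read. In the authors' deposited table for aPD-1+CD8 v IgG its mean count of 0.114 equalled the smallest mean of any gene there. No fold is formed against such values. The authors' deposited table had Ido1 higher by 1.68 ± 0.28 in log2 in IFNg v IgG (adjusted p = 1.3e-07) and by 3.25 ± 0.49 in IFNg v aPD-1 (adjusted p = 2.1e-09). Against groups so near 0 these fitted values depend on the shrinkage of each table, and their difference is no measure of a difference between IgG and aPD-1. The authors' deposited table for aPD-1 v IgG lists Ido1 at a mean count of 0.127 with no adjusted p.

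**Figure D1:**
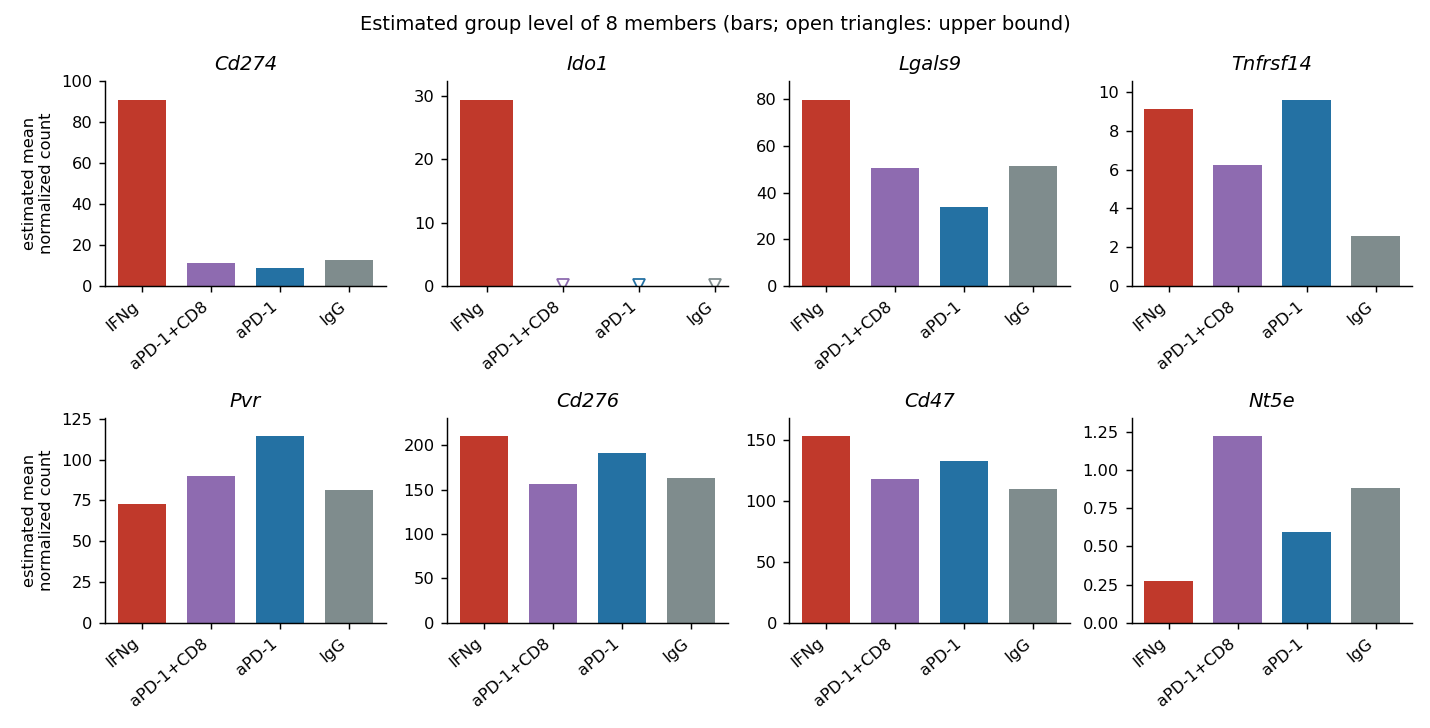
Estimated mean normalized count (vertical axis, linear from 0, scale differs by panel) of 8 genes in the 4 groups, 3 libraries each; open triangles mark upper bounds where no level could be estimated. Cd274 at 91.1 and Ido1 at 29.4 stand out in IFNg cultures, while Pvr, Cd276 and Cd47 differ by less than 2-fold over all 4 groups.

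Lgals9 was lowest in the aPD-1 cultures. Its estimated level was 79.8 in IFNg cultures, 50.4 in aPD-1+CD8 cultures, 33.7 ± 0.12 in aPD-1 cultures and 51.5 ± 0.12 in IgG cultures. In the authors' deposited table for IFNg v aPD-1 it rose by 1.07 ± 0.35 in log2 (adjusted p = 0.020). That call was lost at a threshold of 0.01 and with a null fitted to the spread of all scores (adjusted p = 0.116), and the adjusted p ranged from 0.017 to 0.116 over the alternatives. Against IgG the authors' deposited table gave 0.46 ± 0.25 (adjusted p = 0.51). The direct comparison of aPD-1 v IgG was at -0.51 ± 0.29 (adjusted p = 0.25) in the authors' deposited table. For aPD-1+CD8 v aPD-1 it was at 0.48 ± 0.31 (adjusted p = 0.36) in the authors' deposited table. The order of aPD-1+CD8 and IgG, at 50.4 and 51.5, is within the error of these tests.

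Tnfrsf14 was low in every group and lowest in IgG. Its estimated level was 9.14 in IFNg cultures, 6.22 in aPD-1+CD8 cultures, 9.61 ± 0.02 in aPD-1 cultures and 2.59 ± 0.02 in IgG cultures. The ratio of levels was 3.71 for aPD-1 over IgG and 3.53 for IFNg over IgG. The authors' deposited table for aPD-1 v IgG gave 0.89 ± 0.42 in log2 (p = 0.033, adjusted p = 0.13). That of IFNg v IgG gave 0.54 ± 0.26 (p = 0.040, adjusted p = 0.38) in the authors' deposited table. Neither passed after adjustment over all genes.

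Pvr ran in another order, highest in aPD-1 and lowest in IFNg. Its estimated level was 72.8 in IFNg cultures, 89.8 in aPD-1+CD8 cultures, 114 ± 0.19 in aPD-1 cultures and 81.5 ± 0.19 in IgG cultures. Its largest difference was that of IFNg v aPD-1, at -0.60 ± 0.27 in log2 (p = 0.027, adjusted p = 0.13) in the authors' deposited table. In aPD-1 v IgG the authors' deposited table had 0.42 ± 0.23 (adjusted p = 0.22). No comparison passed, so the order of the 4 levels is a description.

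Cd276 and Cd47 varied least. Cd276 had an estimated level of 210 in IFNg cultures, 156 in aPD-1+CD8 cultures, 191 ± 0.25 in aPD-1 cultures and 164 ± 0.25 in IgG cultures. Cd47 had 153 in IFNg cultures, 118 in aPD-1+CD8 cultures, 133 ± 0.29 in aPD-1 cultures and 110 ± 0.29 in IgG cultures. Both were highest with interferon-gamma, without passing the test. In the authors' deposited table for IFNg v IgG Cd276 was at 0.28 ± 0.23 (adjusted p = 0.77) with a 95% interval of -0.18 to 0.73. Cd47 was at 0.38 ± 0.23 (adjusted p = 0.59) with an interval of -0.08 to 0.84 in the authors' deposited table for IFNg v IgG. These intervals leave out a doubling of either gene on the deposited, shrunken scale.

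Nt5e was barely measured. Its estimated level was 0.276 in IFNg cultures, 1.22 in aPD-1+CD8 cultures, 0.597 in aPD-1 cultures and 0.885 in IgG cultures, which is at most a few reads per group. It had an adjusted p in 1 table alone, aPD-1+CD8 v IgG, where it did not pass. Differences of Nt5e were not detectable at this depth.

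**Figure D2:**
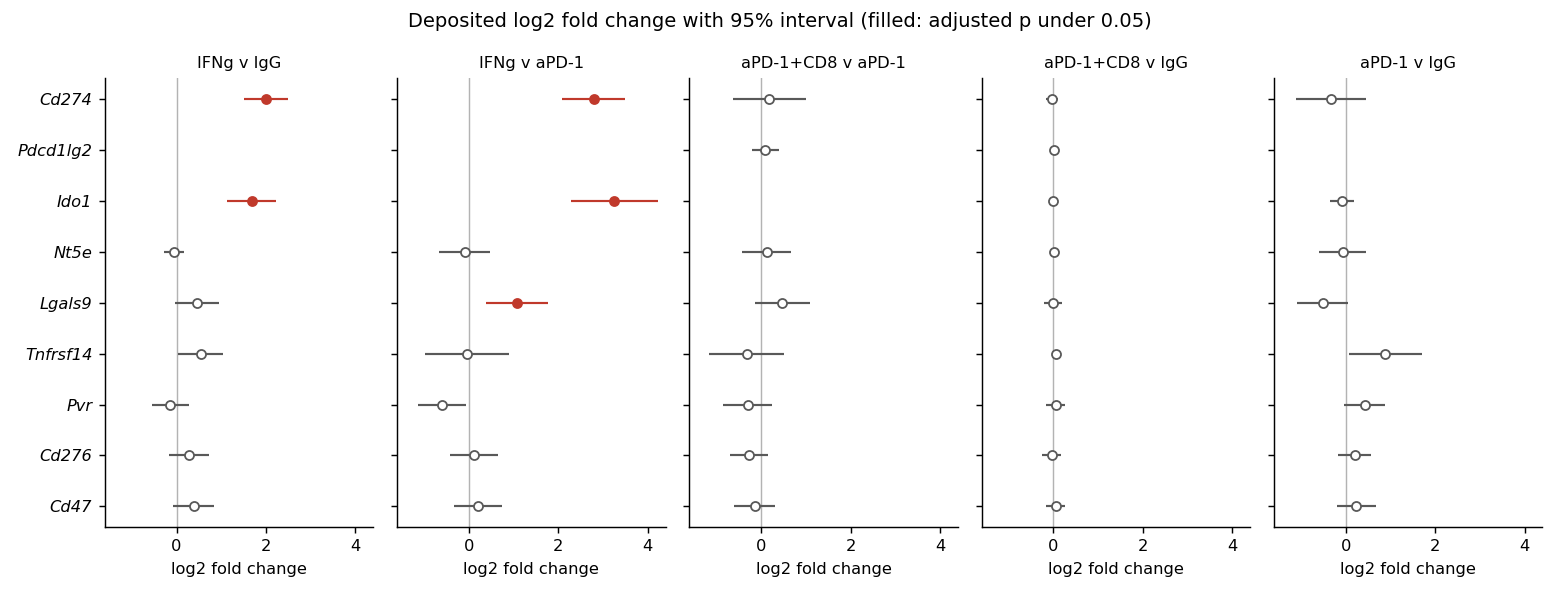
Log2 fold change of each gene (horizontal axis) with its 95% interval in the authors' 5 deposited comparisons, the first named group over the second; filled points have an adjusted p under 0.05. Filled points are Cd274 and Ido1 in both IFNg comparisons and Lgals9 in IFNg v aPD-1; the intervals are narrowest in aPD-1+CD8 v IgG, the table with the smallest standard errors at low counts.

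Counted over the members, the calls lay in the 2 comparisons of IFNg cultures. In IFNg v IgG 2 of the 7 members tested, Cd274 and Ido1, were higher and 0 lower, beside 4.10% of all genes changed in either direction, 2.73% higher and 1.38% lower. In IFNg v aPD-1 3 of the 7 tested, Cd274, Ido1 and Lgals9, were higher and 0 lower, beside 15.5% of all genes changed, 8.39% higher and 7.13% lower. In aPD-1+CD8 v aPD-1 none of the 6 tested members passed in the DESeq2 test, beside 14.8% of all genes, 7.82% higher and 6.94% lower, and 0 had an unadjusted p under 0.05. In aPD-1+CD8 v IgG 0 of the 9 tested passed, as did 0% of all 15304 genes. Of these genes 57 had an unadjusted p under 0.05, and no member did. That is far fewer than a threshold of 0.05 would give with no difference at all, so the test was conservative there. The robust standard deviation of the Wald scores was 0.718 in that table, against 0.965 in IFNg v IgG and more in the others. With the null fitted to all scores 0 genes passed as well. A count of 0 there does not show that aPD-1+CD8 and IgG cultures were alike. In aPD-1 v IgG 0 of the 6 tested passed, beside 18.5% of all genes, 8.50% higher and 10.0% lower, and 1 member, Tnfrsf14, had an unadjusted p under 0.05. With 6 members, a count of 0 beside such a background share says little about the members as a group.

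The median log2 fold change of the tested members was 0.46 in IFNg v IgG, 0.20 in IFNg v aPD-1, -0.21 in aPD-1+CD8 v aPD-1, 0.01 in aPD-1+CD8 v IgG and 0.22 in aPD-1 v IgG. Over all genes tested the median was at most 0.01 in each table. Except in aPD-1+CD8 v IgG, where all 9 members were tested, these medians leave out members with no row or no adjusted p: Nt5e and Pdcd1lg2 in each of the other 4 tables, and Ido1 in aPD-1 v IgG and aPD-1+CD8 v aPD-1.

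**Figure D3:**
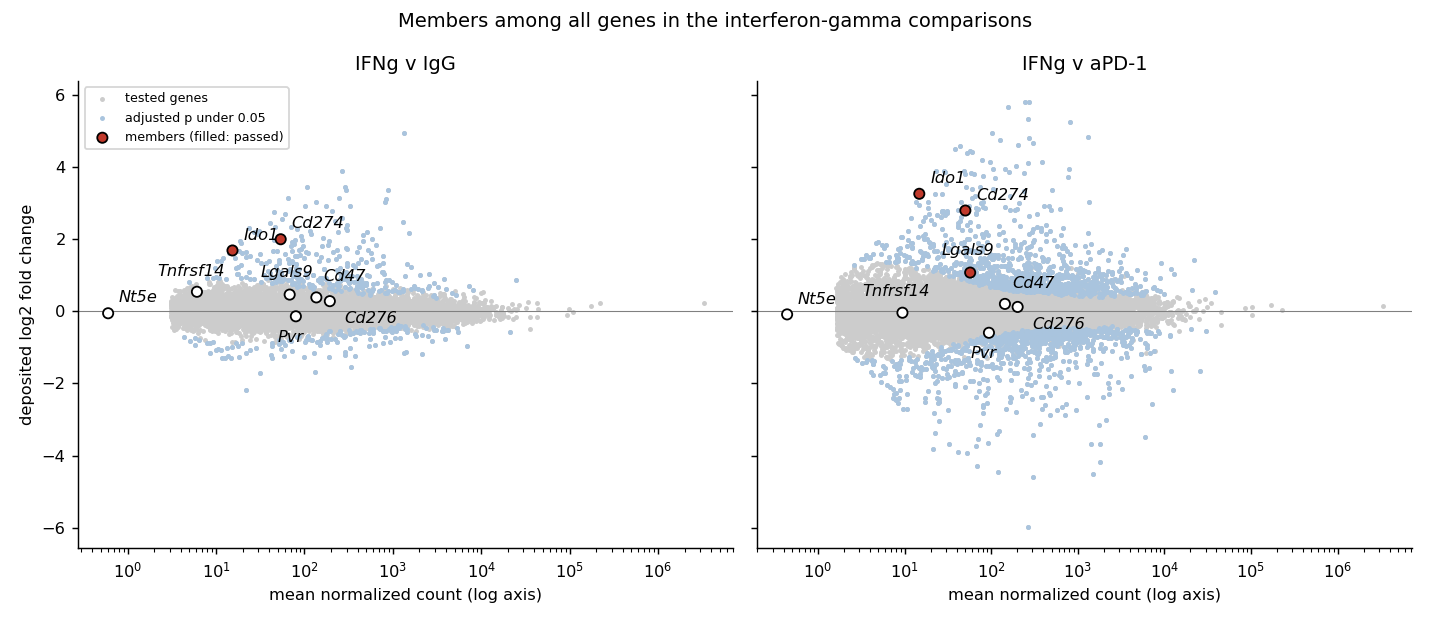
Deposited log2 fold change (vertical axis) against mean normalized count (horizontal log axis) of all tested genes in IFNg v IgG (left) and IFNg v aPD-1 (right); grey points are tested genes, blue those with an adjusted p under 0.05, and circles the named members, filled where they passed. Ido1 and Cd274 lie among the higher called genes in both panels, and Lgals9 is filled on the right alone.

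The steps from receptor to target were measured well. Of 14 genes of interferon-gamma signalling 7 were higher and 0 lower in IFNg v IgG, beside 4.10% of all genes changed. With a log2 change of at least 1, 5 of these calls were left. The transcription factor Irf1 had a level of 2172 in IFNg cultures, 339 in aPD-1+CD8 cultures, 464 in aPD-1 cultures and 338 in IgG cultures, and was at 2.48 ± 0.14 in log2 (adjusted p = 1.9e-62) in the authors' deposited table for IFNg v IgG. Socs3, a feedback inhibitor of cytokine signalling, had 131 in IFNg cultures, 51.3 in aPD-1+CD8 cultures, 1010 in aPD-1 cultures and 35.4 in IgG cultures. It was at 1.16 ± 0.26 (adjusted p = 5.7e-04) in the authors' deposited table for IFNg v IgG and at -2.74 ± 0.28 (adjusted p = 3.7e-20) in that for IFNg v aPD-1. Of the same 14 genes 5 were higher and 4 lower in IFNg v aPD-1, beside 15.5% of all genes changed. In aPD-1 v IgG 5 were higher and 2 lower, beside 18.5%. These 7 calls in aPD-1 v IgG fell to 4 with a log2 change of at least 1 and to 5 with the fitted null. In aPD-1+CD8 v aPD-1, 1 was higher and 4 lower of 13 tested, beside 14.8% of all genes changed.

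Enzymes and sensors of tryptophan use split by comparison. Ido2, the paralogue and chromosome 8 neighbour of Ido1, had a level of 35.2 in IFNg cultures, 3.44 in aPD-1+CD8 cultures, 2.32 in aPD-1 cultures and 3.06 in IgG cultures. It was higher by 1.62 ± 0.28 in IFNg v IgG (adjusted p = 7.2e-07) and by 2.69 ± 0.45 in IFNg v aPD-1 (adjusted p = 8.9e-08) in the authors' deposited tables. No source used here says how reads shared by the 2 paralogues were counted. It was the one gene of 6 tested in this list to pass in IFNg v IgG, where 2.73% of all genes were higher. In IFNg v aPD-1, where 8.39% of all genes were higher, 4 of 6 were.

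The other 3 of those 4 were low with aPD-1. The tryptophanyl-tRNA synthetase Wars, the kynurenine-sensing receptor Ahr and the tryptophan and leucine transporter Slc7a5 fell in aPD-1 v IgG, being at -1.48 ± 0.19, -1.16 ± 0.28 and -1.74 ± 0.17 in log2 in the authors' deposited table. Slc7a5 had a level of 5601 in IFNg cultures, 6584 in aPD-1+CD8 cultures, 1643 in aPD-1 cultures and 5682 in IgG cultures. The aPD-1 cultures were the low group in those levels. Nos2, the inducible nitric oxide synthase and chromosome 11 neighbour of Lgals9, rose in aPD-1 v IgG by 1.64 ± 0.36 (adjusted p = 9.5e-05) in the authors' deposited table. In IFNg v IgG it was at 0.69 ± 0.24 (adjusted p = 0.079) in the authors' deposited table. In IFNg v aPD-1 it was at 0.76 ± 0.51 (adjusted p = 0.37) in the authors' deposited table. Its level was 106 in IFNg cultures, 10.8 in aPD-1+CD8 cultures, 39.1 in aPD-1 cultures and 8.02 in IgG cultures. The IFNg cultures were thus the highest in level, though neither IFNg comparison of Nos2 passed. Of 5 genes of the list tested in aPD-1+CD8 v aPD-1, 3 were higher and 1 lower, beside 7.82% and 6.94% of all genes.

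Most receptors that read the ligands had few counts. Of 13 partner receptors and ligands 8 had a row in at least 1 table, and 3 of these stayed under a mean count of 1. Havcr2, described as a galectin-9 receptor, had a mean count of 2.27 and Sirpa, the CD47 receptor, one of 11.6 in the aPD-1 v IgG comparison of the authors' deposited table. Rgmb, a BMP co-receptor that also binds PD-L2, was better measured, at a level of 47.0 in IFNg cultures, 48.3 in aPD-1+CD8 cultures, 55.3 in aPD-1 cultures and 44.4 in IgG cultures. Neither Sirpa nor Rgmb passed in any comparison. The one partner that passed was Thbs1, which encodes thrombospondin-1, a matrix ligand of CD47. In aPD-1 v IgG it was 1 of 4 partners tested, beside 18.5% of all genes changed. In aPD-1+CD8 v aPD-1 it was 1 of 4, beside 14.8%. In IFNg v aPD-1 it was 1 of 5, beside 15.5%. There it was at -2.36 ± 0.26 in log2 (adjusted p = 4.4e-18) in the authors' deposited table. The level of Thbs1 was 68.2 in IFNg cultures, 34.0 in aPD-1+CD8 cultures, 384 in aPD-1 cultures and 54.1 in IgG cultures. It was at 2.55 ± 0.22 in aPD-1 v IgG (adjusted p = 9.5e-28) and at -3.19 ± 0.25 in aPD-1+CD8 v aPD-1 (adjusted p = 1.35e-35) in the authors' deposited tables. Cd47 itself was at 0.24 ± 0.22 and -0.14 ± 0.23 in the same authors' deposited tables and passed in neither. Of 8 fibroblast markers tested in aPD-1 v IgG 4 were higher and 0 lower, beside 8.50% and 10.0% of all genes. The summed level of the listed markers was 9080 in aPD-1 cultures and 2914 in IgG cultures. Pdgfrb and Fap ran the other way in level, at 490 and 25.4 in aPD-1 cultures and 592 and 37.6 in IgG cultures.

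Of 12 other ligands of immune receptors tested in aPD-1 v IgG 2 were higher and 2 lower, and 8 did not pass, beside 18.5% of all genes that passed. The nectin Pvrl1, of the same family as Pvr, rose by 1.18 ± 0.29 (adjusted p = 5.9e-04) and the 4-1BB ligand Tnfsf9 by 1.27 ± 0.30 (adjusted p = 3.7e-04) in the authors' deposited table. Galectin-3, Lgals3, fell by 1.28 ± 0.19 (adjusted p = 1.7e-09) and H2-T23, which encodes the NKG2A ligand Qa-1, fell by 1.46 ± 0.32 (adjusted p = 7.4e-05), per the authors' deposited table. In aPD-1+CD8 v aPD-1, which shares the aPD-1 libraries, 2 of 8 were higher and 2 lower, beside 14.8% of all genes. There the authors' deposited table had Lgals3 at 1.33 ± 0.17, H2-T23 at 1.26 ± 0.36, Pvrl1 at -1.12 ± 0.34 and Tnfsf9 at -1.72 ± 0.34. In IFNg v IgG 0 of 10 passed in the DESeq2 test, and in IFNg v aPD-1 2 of 10 were higher and 3 lower, where the shares of all genes were 4.10% and 15.5%. The 5 calls in IFNg v aPD-1 fell to 3 with a log2 change of at least 1 and to 3 with the fitted null. H2-T23 had a level of 121 in IFNg cultures, 53.5 in aPD-1+CD8 cultures, 17.4 in aPD-1 cultures and 59.8 in IgG cultures.

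Of the adenosine pathway beside Nt5e, 2 of 7 tested genes were lower and 0 higher in aPD-1 v IgG, where 18.5% of all genes passed. These were the adenosine kinase Adk, at -0.67 ± 0.15 (adjusted p = 9.35e-05), and the nucleoside transporter Slc29a1, at -1.05 ± 0.17 (adjusted p = 4.6e-08), in the authors' deposited table. In aPD-1+CD8 v aPD-1, which shares the aPD-1 libraries, Adk was at 0.61 ± 0.18 and Slc29a1 at 0.99 ± 0.19 in the authors' deposited table, and both passed. In IFNg v aPD-1 both passed as well, Adk at 0.49 ± 0.18 (adjusted p = 0.0499) and Slc29a1 at 1.07 ± 0.22 in the authors' deposited table, and in IFNg v IgG 0 of 5 did. In IFNg v aPD-1 1 of the 2 calls was left at a threshold of 0.01, with a log2 change of at least 1, with no filter on mean counts and with the null fitted to all scores. For aPD-1+CD8 v aPD-1 0 were left with a log2 change of at least 1 and 1 with the fitted null, and in aPD-1 v IgG 1 was left with a log2 change of at least 1. Genes that handle PD-L1 and CD47 protein had 2 of 12 higher and 2 lower in aPD-1 v IgG, beside the same 18.5% of all genes. Of these 4 calls 2 were left with the fitted null and 1 with a log2 change of at least 1. The sheddases Adam10 and Adam17 were at 0.46 ± 0.14 and 0.52 ± 0.15, and Cmtm4, which stabilises PD-L1, and Hip1r, which sends it to lysosomes, were at -0.60 ± 0.16 and -1.27 ± 0.26 in the authors' deposited table. In IFNg v IgG 0 of the 12 passed. In aPD-1+CD8 v IgG, where the test was conservative, none of these 6 lists had a gene that passed, as was so for all genes.

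**Figure D4:**
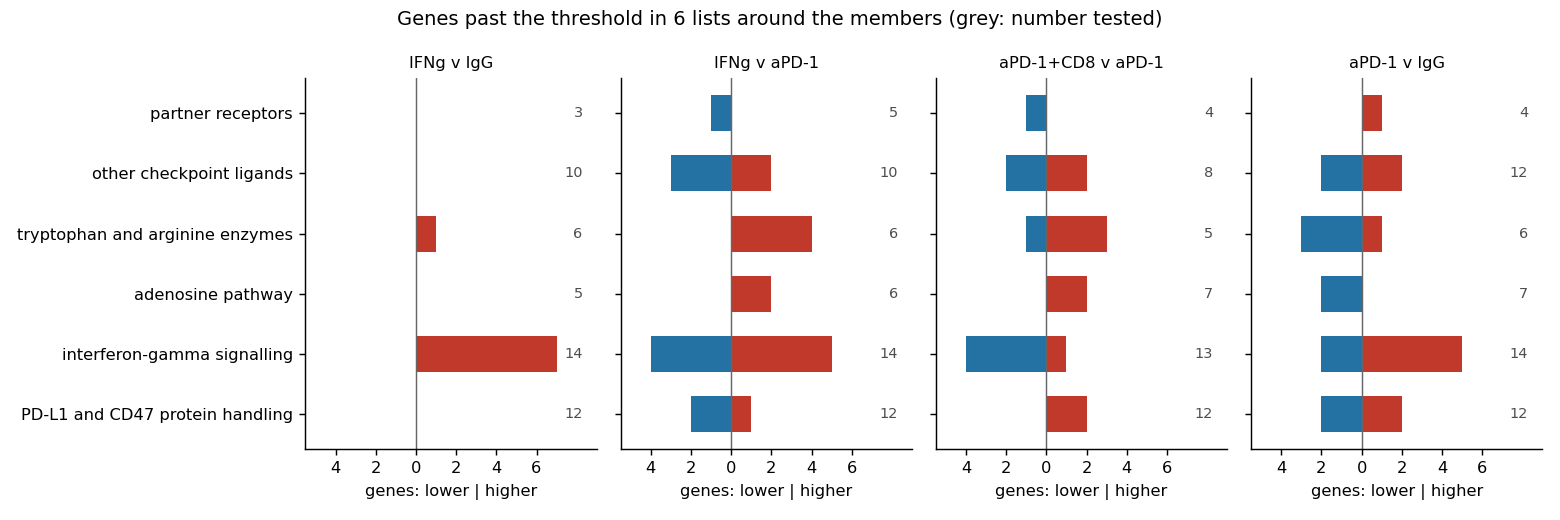
Number of genes lower (left of 0, blue) and higher (right of 0, red) at an adjusted p under 0.05 in 6 gene lists around the members, in 4 comparisons; grey numbers give the genes tested. In IFNg v IgG the passing genes are 7 of interferon-gamma signalling and Ido2, while the other 3 panels, which share the aPD-1 libraries, hold genes on both sides.

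By estimated level, the genes nearest in pattern over the 4 groups to Lgals9 were Cpe, Ddx24 and Tanc2, at distances of 0.04 to 0.07 in log2, among 9685 genes with a level of at least 10 in every group. The nearest to Pvr were Sbk1, Dcakd and Alg12, those to Cd276 were Pqlc1, Tbc1d2b and Utrn, and those to Cd47 were Hist1h4b, Fam3c and Tex9. Cd274 fell under that minimum in aPD-1 cultures. With a minimum of 5, chosen after its level was seen, the nearest to Cd274 of 10441 genes were Ifi47, Mx1 and Gbp9, at 0.21 to 0.32. Ifi47 had 151 in IFNg cultures, 20.1 in aPD-1+CD8 cultures, 17.5 in aPD-1 cultures and 25.6 in IgG cultures. Over 4 points such a likeness is weak.

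The cell types in the cultures bear on which cells carried these transcripts. Of 8 epithelial markers expected of a colon carcinoma 6 were listed, and the highest mean count of any was 4.05, so the defining epithelial transcripts were near absent. Of 13 T and NK cell markers 7 were listed and 6 of these stayed under a mean count of 1 in every table. Their summed level was 10.8 in IFNg cultures, 2.09 in aPD-1+CD8 cultures, 2.81 in aPD-1 cultures and 2.51 in IgG cultures. Nearly all of the first was Lck, a T cell kinase, at 10.5, which was at 1.37 ± 0.51 (adjusted p = 0.044) in the authors' deposited table for IFNg v aPD-1. That call was lost at a threshold of 0.01, with no filter on mean counts and with the null fitted to all scores.

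Macrophage and dendritic cell markers, cells that can also express Cd274 and Ido1, were all 12 listed. Their summed level was 450 in IFNg cultures, 187 in aPD-1+CD8 cultures, 185 in aPD-1 cultures and 211 in IgG cultures. Most of the first was Csf1r, at 342, whose p-value is empty in both IFNg tables, which is how DESeq2 marks an outlying count in a library. Without it the sums were 107 in IFNg cultures, 161 in aPD-1+CD8 cultures, 166 in aPD-1 cultures and 185 in IgG cultures. In IFNg v IgG 0 of the 8 macrophage and dendritic cell markers tested were higher and 1 lower, beside 2.73% and 1.38% of all genes. In IFNg v aPD-1 0 of 10 were higher and 2 lower, beside 8.39% and 7.13%. With so few markers, 0 higher beside such shares says little about these cells. Such empty p-values numbered 67 in IFNg v IgG and 43 in IFNg v aPD-1, against 2 to 5 in the other tables, and no member had one. Fibroblast markers summed to 2764 in IFNg cultures, 2637 in aPD-1+CD8 cultures, 9080 in aPD-1 cultures and 2914 in IgG cultures. Of 8 tested, 4 were higher and 0 lower in aPD-1 v IgG, where 18.5% of all genes changed. In aPD-1+CD8 v aPD-1 0 were higher and 3 lower, beside 14.8% of all genes. In IFNg v aPD-1 0 were higher and 5 lower, beside 15.5%. These comparisons share the aPD-1 libraries. In IFNg v IgG, which does not use them, 2 were higher and 3 lower, beside 4.10% of all genes. Endothelial markers summed to 50.3 in IFNg cultures, 29.8 in aPD-1+CD8 cultures, 88.1 in aPD-1 cultures and 28.3 in IgG cultures. Nearly all of that was the cadherin Cdh5, at 1.49 ± 0.28 (adjusted p = 2.4e-06) in the aPD-1 v IgG comparison of the authors' deposited table. The part of these markers in the values of the members, of Thbs1 and of the other lists was not tested.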

How the data were processed

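Counts in RNA-seq libraries of 12 samples had been compared in pairs of groups by the authors, with DESeq2 on the mm9 build per the submitters' processing notes; its version, and the aligner, counting, annotation and use of strand, are not stated in these sources. Libraries were exome captures of 250 ng total RNA, per the labels' protocols. Per the file headers the 5 deposited tables hold a mean normalized count (a signal scaled for library size), a log2 fold change with SE, its Wald score, and p-values before and after adjustment. Standard errors stay bounded at low counts: under a mean of 10 their median was 0.0217 in aPD-1+CD8 v IgG and 0.369 in IFNg v aPD-1, as with fold changes shrunken by different amounts. Scores, p-values and adjusted p-values were recomputed within rounding. A gene counted as changed at an adjusted p under 0.05. The tables held 0 columns of single samples.

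Group levels were solved from the mean counts, taking each as the mean of its 2 groups. The tables differed in scale, so each was first divided by a factor of 0.934 to 1.07, the median over 5706 genes at 100 or more in every table. This step was chosen after the data were seen and departs from the plain solving first planned; it brought the median gap of the IgG routes to 0.299%, against 0.592% without it. In well-measured genes (mean of at least 500, absolute score of at least 5) the level ratio differed from the deposited log2 fold change by a median of 0.005 (aPD-1 v IgG) to 0.124 (IFNg v IgG). Promoters are RefSeq's (GRCm38.p6), with 7 of 9 members matched, and no coordinates were taken across builds. Named were all 9 members, the genes of each list with the smallest p (at most 4) or needed for its result, and the 3 genes nearest in pattern. An item of the interferon-gamma signalling list and a motif are not reported here. Members and lists were chosen with earlier results of these data known. Python 3.11.15, numpy 2.4.6, pandas 2.3.3 and scipy 1.17.1 were used.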

Additional observations from a re-analysis of the deposited data

How the results depend on the processing

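Counts of members called were within 1.5 times of those reported under all 5 alternatives in each comparison (adjusted p of 0.01, a log2 change of at least 1, no filter on mean counts, a mean of at least 10, and a null fitted to all scores). Of the values of single members 170 stayed on their side of the threshold, and 2 did not: Lgals9 in IFNg v aPD-1 was lost at 0.01 and with the fitted null (adjusted p = 0.116). The threshold of 0.01 and the log2 change of at least 1 can only remove calls. Under these, members not called and counts of 0 could not change, so much of this agreement was fixed in advance. Counts over all genes moved more: requiring a log2 change of at least 1 left 190 genes in IFNg v IgG, 860 in IFNg v aPD-1, 656 in aPD-1+CD8 v aPD-1 and 707 in aPD-1 v IgG. The fitted null left 1077 in IFNg v aPD-1, 970 in aPD-1+CD8 v aPD-1 and 1191 in aPD-1 v IgG, and a threshold of 0.01 left 1099 in aPD-1+CD8 v aPD-1. With an adjusted p under 0.05 alone there were 471 in IFNg v IgG, 1903 in IFNg v aPD-1, 1706 in aPD-1+CD8 v aPD-1 and 2229 in aPD-1 v IgG.

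Solved without rescaling, the levels reversed 2 directions, with log2 ratios of -0.32 for Pvr and -0.33 for Cd47 in aPD-1+CD8 v IgG. Levels then were 73.0 for Pvr, 126 for Cd276 and 97.1 for Cd47 in aPD-1+CD8 cultures and 181 for Cd276 in IgG cultures. Without rescaling the median gene lay at -0.42 in aPD-1+CD8, -0.19 in IFNg and -0.09 in aPD-1 relative to IgG in log2. No paired analysis was possible because the tables hold no values of single libraries, and for the same reason no library could be left out. Depth limits Pdcd1lg2, Ido1 outside IFNg, Nt5e and Tnfrsf14. Of the counts of gene lists under the alternatives 246 stayed within 1.5 times, 28 were lower and 1 was higher, for which the cause was not tested. Lists with a count of 0 could not be lower.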
